A study of Mus musculus with 8 samples.

Results

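The replication-dependent histone cluster of mouse chromosome 13 is a group of genes for the linker histone H1 and the core histones H2A, H2B, H3 and H4. Its members were the RefSeq protein-coding genes between 21.5 and 23.8 Mb (GRCm38) whose symbols begin with H1f, H2a, H2b, H2ac, H2bc, H3c or H4c (Hist1 in earlier naming). This gave 51 of 21887 protein-coding genes: 6 for H1, 12 for H2A, 13 for H2B, 9 for H3 and 11 for H4. They lay in 2 blocks, a first of 22 genes at chr13:21714711-22044658 and a second of 29 genes at chr13:23530044-23765412. The testis histone genes H2ac1 and H2bc1 lie beyond 23.8 Mb and are not members.

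Acetylation of histone H3 at lysine 27 (H3K27ac) and at lysine 9 (H3K9ac) was profiled by CUT&Tag, a method that tethers a transposase to antibody-bound chromatin and sequences the fragments it releases. The cells were small intestinal crypt epithelium of male C57BL/6J mice aged 9 weeks. Mice were fed (Fed) or fasted for 24 h (Fast), and each feeding state was studied without or with tetracycline given for 21 days, an antibiotic that acts on gut bacteria. Each mark therefore had 4 groups, each of 1 sample with 2 deposited peak lists, so 16 lists in all. The labels do not say whether lists 1 and 2 of a sample came from different mice, or how many mice were pooled. The list is the unit of spread below, and every p-value measures only the spread between lists, which may be technical.

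Replication-dependent histone genes are transcribed mainly in S phase, when new chromatin needs histones. Most are short and have no introns, and their mRNAs end in a stem-loop in place of a poly(A) tail. The factor NPAT gathers them in histone locus bodies, and the stem-loop binding protein encoded by Slbp acts in 3′ end formation and translation. Intestinal crypts hold the stem cells and rapidly dividing progenitors of the epithelium, so these genes are in demand there. H3K27ac marks active promoters and enhancers, and H3K9ac is found chiefly at active promoters.

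A gene was called marked in a list when a peak overlapped the gene or the 1 kb on either side of it, which is its window, by at least 1 bp. Peak scores have no stated unit, and the reads behind each list are unknown, so the measures used were the presence of a peak and the base pairs of a window covered by peaks. H3K27ac lists held 32392 to 68545 peaks and H3K9ac lists 17249 to 99050. The labelled tissue was checked against marker genes. All 10 epithelial markers carried H3K27ac in all 8 lists and 8 of them carried H3K9ac in all 8. Of 12 markers of immune, stromal, endothelial, muscle and neural cells, between 2 and 8 were marked in an H3K27ac list and between 2 and 9 in an H3K9ac list. Cd79a, a B-cell gene, was the only one of the 12 marked in all 8 lists of a mark (H3K27ac), and Cdh5, an endothelial gene, was in no H3K27ac list. Of 4 Paneth cell markers at most 3 were marked in a list. Of 14 crypt and proliferation markers, 9 to 14 were marked in an H3K27ac list and 6 to 14 in an H3K9ac list. The part of cells other than epithelium in the values below was not tested. Near-identical copies make up much of the cluster, and how reads matching several copies were assigned is not given in the sources used here, so a peak at a gene with close copies may include reads of another copy.

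The H1 promoters are shown first, because the linker histone genes include both the most steadily marked members and the least marked. H1f2 and H1f4 encode somatic linker histones, and H1f6 encodes H1t, the linker histone of male germ cells. The 250 bases before each start site were taken from the RefSeq table of GRCm38.p6, at chr13:23738557-23738806 (plus strand) for H1f2, chr13:23622559-23622808 (minus strand) for H1f4 and chr13:23695561-23695810 (plus strand) for H1f6. Capitals mark the H1 box AAACACA, the CCAAT box and the TATA box TATAAA.
H1f2: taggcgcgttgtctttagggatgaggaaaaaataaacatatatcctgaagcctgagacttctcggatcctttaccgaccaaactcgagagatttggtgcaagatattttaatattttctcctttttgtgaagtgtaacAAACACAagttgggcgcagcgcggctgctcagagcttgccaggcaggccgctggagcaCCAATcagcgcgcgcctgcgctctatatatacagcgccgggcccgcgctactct
H1f4: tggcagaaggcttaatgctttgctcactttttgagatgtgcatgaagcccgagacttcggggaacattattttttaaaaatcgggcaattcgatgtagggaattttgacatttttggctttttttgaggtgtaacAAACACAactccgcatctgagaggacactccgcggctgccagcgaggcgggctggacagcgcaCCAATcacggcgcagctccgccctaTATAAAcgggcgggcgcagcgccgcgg
H1f6: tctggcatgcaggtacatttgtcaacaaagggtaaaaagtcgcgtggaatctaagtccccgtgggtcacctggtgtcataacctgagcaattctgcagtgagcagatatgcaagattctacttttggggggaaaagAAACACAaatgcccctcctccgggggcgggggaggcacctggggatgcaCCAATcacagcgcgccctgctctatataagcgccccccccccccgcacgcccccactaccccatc
All 3 hold an H1 box and a CCAAT box on the gene strand, and of these 3 windows TATAAA was found in that of H1f4. Only the exact letters TATAAA were searched, and H1f2 and H1f6 hold the similar tatata after their CCAAT box. The H1 box began at -112, -115 and -114 from the start site in H1f2, H1f4 and H1f6, and the CCAAT box at -54, -52 and -65. Thus the germ-cell gene and both somatic genes carry the same pair of motifs at nearly the same places.

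The peaks over these 3 genes differed. H1f2 carried both marks in all 16 lists. Its window of 2725 bp was covered over 2152 and 1987 bp in the H3K27ac Fed lists 1 and 2 without tetracycline and over 2514 and 2373 bp in the Fast lists. With tetracycline the H1f2 values were 1956 and 1715 bp (Fed) and 2205 and 2226 bp (Fast). H1f4 was also marked in all 16 lists, with 1973 to 2317 bp of H3K27ac cover (median 2078.5 bp) and 1787 to 2263 bp of H3K9ac cover (median 2027 bp). Neither gene therefore lacked a peak in any list.

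H1f6, in contrast, had no peak over its gene body in any of the 16 lists, and it was the only member for which this was so. A peak reached the edge of its window in 6 H3K27ac lists and 4 H3K9ac lists, from the side of the neighbouring H4c3. The H3K27ac cover of its window was 0, 216, 356 and 216 bp without tetracycline (Fed 1, Fed 2, Fast 1, Fast 2) and 0, 235, 109 and 169 bp with it. The H3K9ac cover was 0, 391, 0 and 25 bp without tetracycline and 0, 174, 100 and 0 bp with it. The pair H2ac1 and H2bc1, the testis H2A and H2B genes at the far side of the cluster, had no peak in any list. No testis gene of the locus thus had a peak over its gene body in any list, whereas H1f2 and H1f4 had a peak there in all 16.

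**Figure D1:**
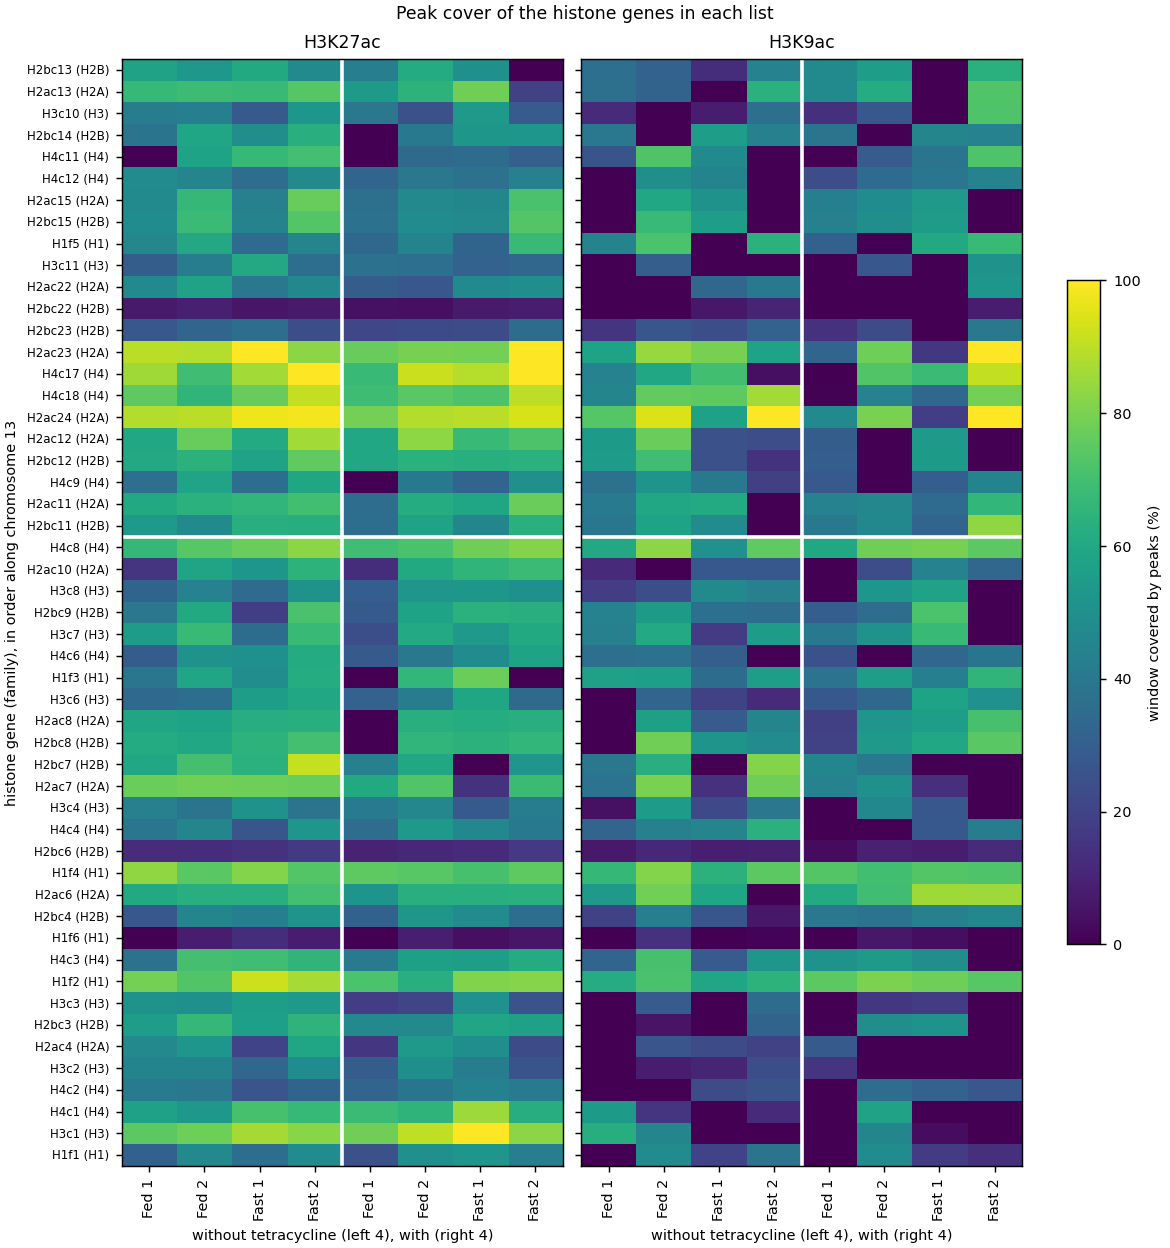
Percent of each member's window (the gene and 1 kb on either side) covered by peaks, for the 51 histone genes in order along chromosome 13 (rows) and the 8 lists of each mark (columns; Fed and Fast lists 1 and 2, without tetracycline left of the white line and with it to the right). The horizontal white line separates the 2 blocks. H1f6 is dark in both panels, H1f2 and H1f4 are bright in both, and the 8 members at the lower end have more dark cells for H3K9ac than for H3K27ac.

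The other H1 genes encode the replication-dependent somatic subtypes. H1f5 carried H3K27ac in 8 lists and H3K9ac in 6, and H1f1 had the same counts. H1f3 was the reverse of most members, with H3K9ac in all 8 lists and H3K27ac in 6. Its H3K27ac cover was 1085, 1645, 1366 and 1722 bp without tetracycline (Fed 1, Fed 2, Fast 1, Fast 2) and 0, 1838, 2153 and 0 bp with it. Its H3K9ac cover ran from 978 to 1815 bp. The 2 lists with no H3K27ac at H1f3 were a Fed and a Fast list, both with tetracycline.

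H2A and H2B genes often lie head to head and share the stretch between their start sites. There were 8 such pairs with start sites at most 500 bp apart. The stretch between the starts is shown for a pair whose H3K27ac values did not overlap between tetracycline states (H2bc7 and H2ac7) and for a pair with an octamer (H2ac12 and H2bc12). They are the 173 bp at chr13:23574208-23574380 and the 177 bp at chr13:22035644-22035820, both read on the plus strand. Capitals mark CCAAT on either strand (ATTGG on the other) and the octamer ATTTGCAT, a site of POU factors known from H2B promoters.
H2bc7 to H2ac7: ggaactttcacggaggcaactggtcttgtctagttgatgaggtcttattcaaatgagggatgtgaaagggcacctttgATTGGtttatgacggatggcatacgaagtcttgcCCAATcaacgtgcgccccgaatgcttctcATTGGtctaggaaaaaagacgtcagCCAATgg
H2ac12 to H2bc12: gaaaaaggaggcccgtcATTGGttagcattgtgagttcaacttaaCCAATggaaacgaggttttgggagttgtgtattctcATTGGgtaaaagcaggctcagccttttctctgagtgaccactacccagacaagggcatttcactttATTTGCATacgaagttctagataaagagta
All 8 stretches held CCAAT on at least 1 strand, and 2 of the 8 held the octamer. Over 8 pairs and 8 lists there were 64 combinations per mark. An H3K27ac peak covered at least 1 of the start sites in 61 of them and both in 60, each time as a single peak over both. For H3K9ac the counts were 45, 43 and 43. Since the windows of 40 members overlapped that of another member, genes of a pair are not separate observations.

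Among the 12 H2A genes 11 carried H3K27ac in all 8 lists, and among the 13 H2B genes 9 did. H3K9ac was in all 8 lists at 2 H2A genes (H2ac23 and H2ac24) and at 2 H2B genes (H2bc6 and H2bc4). H2ac23 had the third largest H3K27ac cover of the cluster, with 2283, 2269, 2552 and 2113 bp without tetracycline (Fed 1, Fed 2, Fast 1, Fast 2) and 1954, 2025, 2015 and 2552 bp with it. That is nearly its whole window, a median of 85.9%. H2ac23 cover by H3K9ac spread further, from 409 to 2552 bp. H2bc6 and H2bc4 ranked above H2ac23 in summed cover (medians of 5084 and 4544 bp for H3K27ac, 3417 and 4009 bp for H3K9ac). Their annotated genes are 37455 and 8282 bp long, whereas 47 of the 51 members are at most 1 kb, so their sums are not comparable with the rest. Per window they had a median of 12.9% and 44.2% H3K27ac cover. H2bc22 and H2bc23, of 14079 and 3788 bp, are the other long members.

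All 9 H3 genes carried H3K27ac in all 8 lists, and none carried H3K9ac in all 8. The H3 genes also had the smallest part of their windows under H3K9ac of the 5 families, a median of 13%, against 37.0% to 54.3% for the others. Single H3 genes ran from 0% (H3c11) to 47.6% (H3c7). Genes of other families were as low, with 0% at H2ac22, 2.6% at H2bc3 and 6.0% at H4c1. Of the H3 genes, H3c2 had the least summed H3K9ac cover. It had 0, 188, 256 and 596 bp without tetracycline (Fed 1, Fed 2, Fast 1, Fast 2) and 371, 0, 0 and 0 bp with it. Its H3K27ac cover was 653 to 1240 bp. H2ac4, which neighbours H3c2, had H3K9ac cover of 0, 658, 583 and 481 bp without tetracycline and 713, 0, 0 and 0 bp with it. Chosen after their values were seen, the 8 members beyond H1f2 at the end of block 2 (H3c3, H2bc3, H2ac4, H3c2, H4c2, H4c1, H3c1 and H1f1) all had H3K27ac in 8 of 8 lists. H3K9ac was present at each of these 8 in 4 to 6 lists, where the median over all 51 members was 6. The fewest H3K9ac lists were in block 1. There H3c11, H2ac22 and H2bc22 had H3K9ac in 3 lists and H3K27ac in 8.

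For H4, 9 of 11 genes had H3K27ac in all 8 lists and 2, H4c18 and H4c8, had H3K9ac in all 8. The promoter of H4c18 and that of H4c2, 1 of the 3 members with the lowest H3K27ac cover, are set side by side, again as the 250 bases before the start site. H4c18 is at chr13:21832198-21832447 (minus strand) and H4c2 at chr13:23756687-23756936 (plus strand). Capitals mark the H4 site II core GGTCCG and TATAAA.
H4c18: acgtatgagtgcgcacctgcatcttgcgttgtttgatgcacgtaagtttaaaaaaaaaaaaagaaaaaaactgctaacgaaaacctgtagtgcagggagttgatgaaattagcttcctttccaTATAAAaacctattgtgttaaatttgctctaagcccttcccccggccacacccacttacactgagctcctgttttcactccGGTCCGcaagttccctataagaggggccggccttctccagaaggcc
H4c2: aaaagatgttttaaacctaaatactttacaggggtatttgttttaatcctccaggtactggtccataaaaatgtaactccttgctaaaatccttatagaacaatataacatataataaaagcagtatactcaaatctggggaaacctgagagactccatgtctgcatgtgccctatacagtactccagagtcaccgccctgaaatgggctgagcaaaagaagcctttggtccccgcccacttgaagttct
The H4c18 window holds GGTCCG at -46. The H4c2 window holds none of the motifs searched before its annotated start, and its GGTCCG begins 7 bases after that start. H4c18 was covered over 1577 to 2184 bp by H3K27ac and over 17 to 2074 bp by H3K9ac. The lowest of these, 17 bp, was the H3K9ac list Fed 1 with tetracycline, where a peak only touched the window. H4c2 had 647 to 1076 bp of H3K27ac cover. H4c11 had no H3K27ac in 2 lists, Fed 1 without and Fed 1 with tetracycline, and 746 to 1698 bp in the other 6. Its GGTCCG begins at -18, and its summed H3K27ac cover of 7163 bp was below the 7249 bp of H4c2. The window of H4c18 overlaps that of H2ac24, which adds to its cover. Whether motif and cover go together was not tested.

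Motifs were searched on both strands in 49 promoters of 48 members (250 bases before to 50 after the start site). H3c7, H2bc4 and H3c1 have no entry. CCAAT was present in 41 of 49 (83.7%), against 37.4% of all 32851 promoters in the table, and in every H1, H2A, H2B and H3 promoter but only 3 of 11 for H4. GGTCCG was in 10 of 11 H4 promoters and 8.25% of all promoters. AAACACA was in 5 of 6 H1 promoters and 7.18% of all. ATTTGCAT was in 5 of 13 H2B and 4 of 12 H2A promoters, the latter only on the opposite strand, and 1.74% of all. TATAAA was in 29 of 49 (59.2%), against 13.6% of all. GGTCCG was also found at H2bc9 and H3c11, and AAACACA at 1 H2A and 1 H2B gene. These matches describe the sequence and are not binding sites that were measured.

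Across all members, H3K27ac was nearly complete by window and H3K9ac was not. Without tetracycline H3K27ac marked 49 and 51 members in the Fed lists 1 and 2 and 51 and 51 in the Fast lists. With tetracycline the counts were 44 and 51 (Fed) and 50 and 49 (Fast). H3K9ac marked 35 and 45 members (Fed) and 43 and 42 (Fast) without tetracycline, and 36 and 40 (Fed) and 40 and 34 (Fast) with it. In all 8 lists H3K27ac was present at 42 of 51 members (82.4%), where 42.4% of all protein-coding genes passed the same rule. H3K9ac was present in all 8 lists at 9 of 51 (17.6%), where 34.1% of all genes passed. These 9 were H2ac23, H4c18, H2ac24, H4c8, H1f3, H2bc6, H1f4, H2bc4 and H1f2. With peaks over the gene body alone, 33 members had H3K27ac and 6 had H3K9ac in all 8 lists. The share of all genes under that rule was not set beside these counts. Windows of 40 members overlapped that of another member, so a neighbour's peak can mark a gene. The part of this packing in the shares was not tested. No member lacked a mark in all lists, whereas 26.4% of all genes had no H3K27ac and 14.4% no H3K9ac in any list.

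A short gene has a short window, so short genes were also counted as a set. Among 2583 protein-coding genes of at most 2 kb, 8.67% had H3K27ac and 4.65% had H3K9ac in all 8 lists. Both shares of the histone genes were above these. The set includes the 47 members of at most 1 kb. Of the set, 80.4% had no H3K27ac and 64.1% no H3K9ac in any list. The part of gene length in these shares was not tested. Keeping the upper 0.5 of each list by score left 14 members with H3K27ac and 4 with H3K9ac in all 8 lists (27.9% and 19.1% of all genes), so the H3K27ac excess over all genes was not seen among the higher-scoring peaks. Without the H3K9ac list Fast 2 with tetracycline, 14 members had H3K9ac in all remaining lists.

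Member peaks were seldom the strongest of a list. The median share of a list's peaks that scored higher than the best peak at a member was 21.5% to 49.4% over the H3K27ac lists and 12% to 39.7% over the H3K9ac lists. H1f2 was an exception, with 0.151% to 24.5% of the H3K27ac peaks and 0.739% to 8.05% of the H3K9ac peaks scoring higher. The score was assigned by the authors and is used here only for order inside a list. Cluster peaks were mostly wider than those of the lists as a whole, with a median over lists of 1039.5 against 897 bp for H3K27ac and 803.5 against 538.5 bp for H3K9ac. In the H3K27ac list Fed 1 with tetracycline both medians were 886 bp. Peaks at gene starts elsewhere were not compared.

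The peaks centred on start sites. Averaged over the 8 lists, 90.1% of 49 histone start sites lay under an H3K27ac peak, compared with at most 44.3% of all gene starts at any distance. For H3K9ac the highest value was 65.6%, at 50 bp before the start, compared with 40.2%. Cover at histone genes fell away on both sides, as the profile around start sites shows, but at 1 to 2 kb it stayed above that of all genes. Neighbouring histone genes lie within such distances.

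**Figure D2:**
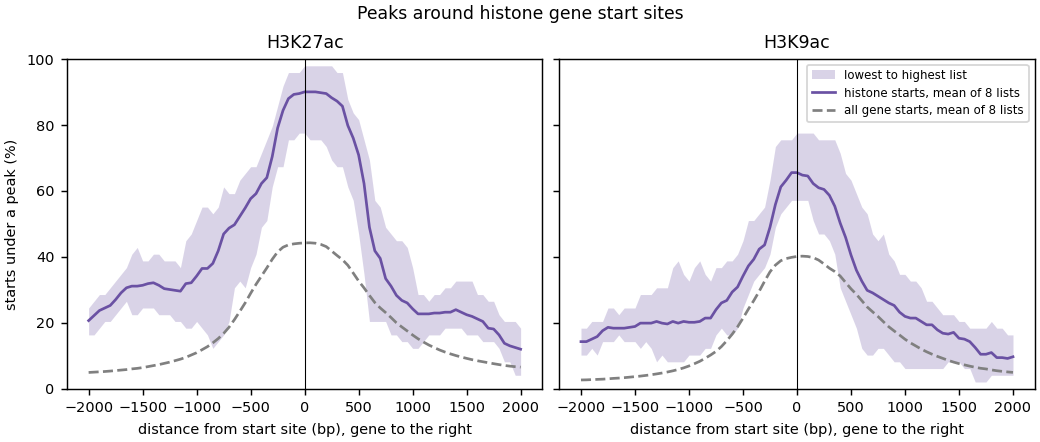
Percent of start sites lying under a peak (vertical axis) against distance from the start site in bp, with the gene to the right, for 49 histone start sites (line, mean of 8 lists; shading, lowest to highest list) and all gene starts (dashed, mean of 8 lists). The H3K27ac line reaches 90.1% at the start site and the H3K9ac line 65.6%, against 44.3% and 40.2% for all starts.

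Along the chromosome the peaks followed the genes. Between 41 and 61 H3K27ac peaks and between 31 and 68 H3K9ac peaks fell in the 2 blocks, and a median of 80.2% and 75.8% of them touched a member's window. Peaks covered 7.32% to 13.7% of the blocks for H3K27ac and 5.21% to 10.7% for H3K9ac. The stretch between the blocks, 1485385 bp long, was covered over 0.415% to 1.31% and 0.378% to 1.39%. Most of the 46 other protein-coding genes in the span were bare. Of 36 Vmn1r genes, which encode vomeronasal receptors, 35 had no H3K27ac and 28 no H3K9ac in any list. Zfp322a carried both marks in all 8 lists. Abt1 and H4bc24, a gene inside block 1 whose symbol falls outside the rule (earlier Hist1h2br), had H3K27ac in 8 lists and H3K9ac in 7. Hfe, the hemochromatosis gene in block 2, had each mark in 7 lists.

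**Figure D3:**
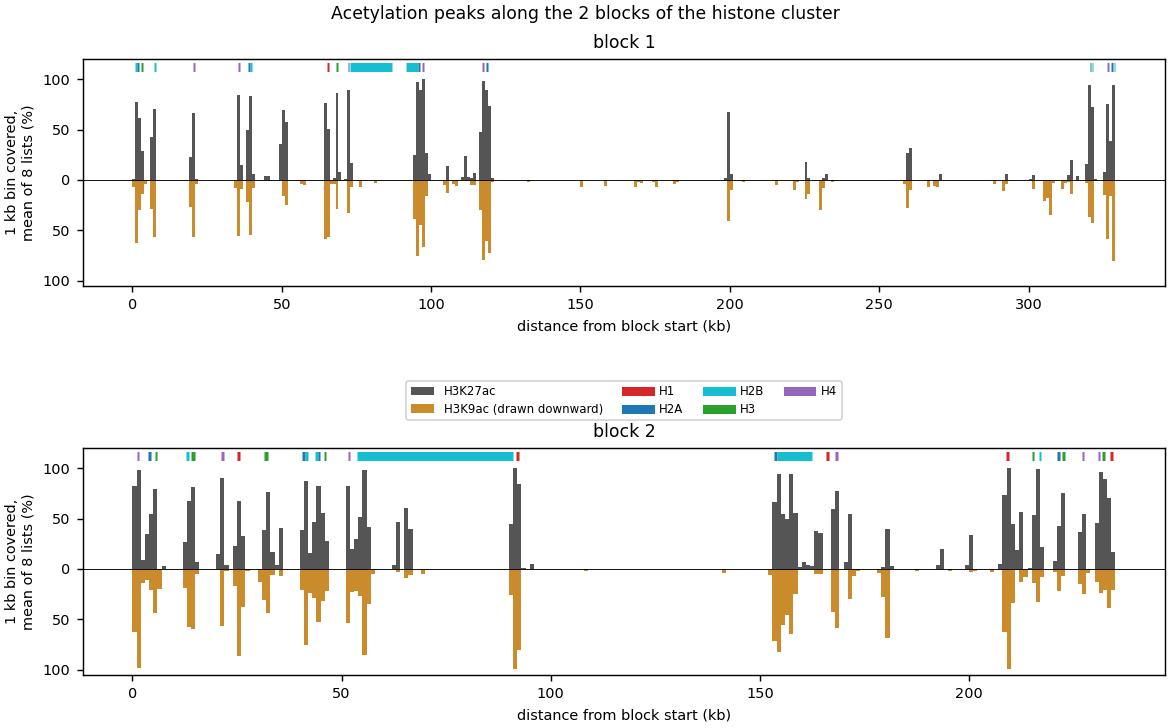
Mean percent of each 1 kb bin covered by peaks over the 8 lists of a mark (H3K27ac upward, H3K9ac downward) against distance from the block's start in kb, for blocks 1 and 2. Coloured ticks on top show the histone genes by family. Most tall bars stand under ticks, and of the bins without any H3K27ac peak there are 260 of 329 in block 1 and 145 of 235 in block 2.

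The marks were compared over the same genes and conditions. H3K27ac covered more of the cluster than H3K9ac by 0.52 on the log2 scale, a ratio of 1.44 (pooled SD between lists 0.36 on the log2 scale). The direction was seen in 8 of 8 pairs of lists with the same condition and number (exact permutation test, two-sided, p = 0.0062, adjusted p = 0.074 over 12 tests). The difference did not pass 0.05 after adjustment. With only the upper 0.5 of each list by score it was 0.43 (exact permutation p = 0.12). Relative to each list's own covered length on chromosomes 1 to 19, X and Y, the cluster's share differed by -0.10 (exact permutation p = 0.42, adjusted p = 0.85), H3K27ac being lower. The share is 1.15 to 1.45 per mille for H3K27ac and 0.909 to 1.85 per mille for H3K9ac. With peaks of at least 500 bp the share differed by -0.34 (exact permutation p = 0.0031), and keeping the upper 0.5 by score or equal numbers of peaks gave -0.35 and -0.36. The order of the marks thus depended on the measure, H3K27ac being higher in base pairs and not in the share.

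Inside the cluster the marks mostly coincided more than in the lists as a whole. Between 44.1% and 67.0% of the cluster's H3K27ac cover lay under H3K9ac of the list with the same condition and number, against 24.7% to 42.9% over all chromosomes, and the cluster's value was higher in 8 of 8 list pairs. In the other direction 63.1% to 84.6% of the cluster's H3K9ac cover lay under H3K27ac, against 27.8% to 69.4%, and it was higher in 7 of 8. The exception was Fed 1 with tetracycline, with 63.1% in the cluster and 64.5% over all chromosomes. Members with H3K27ac alone numbered 6 to 17 per list pair and members with H3K9ac alone 0 to 5. These overlaps are a description, and the lists compared differ in size. Most cluster peaks touched a member's window, and overlap near gene starts elsewhere was not computed. Whether the greater overlap is particular to the cluster was not tested.

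The study asks whether fasting changes these marks. The H3K27ac cover of the cluster without tetracycline was 54623 and 70163 bp in the Fed lists 1 and 2 and 62231 and 77716 bp in the Fast lists. With tetracycline it was 41391 and 64319 bp (Fed) and 66746 and 63766 bp (Fast). Fed and Fast values overlapped, and the lowest list of all was Fed 1 with tetracycline, which was also the list with fewest H3K27ac peaks. The log2 ratio, Fast over Fed, was 0.25, with a pooled SD between lists of 0.28 and 3 of 4 list pairs in this direction (exact permutation p = 0.28, two-sided, adjusted p = 0.85). Leaving out 1 list moved it between 0.094 (without Fed 1 with tetracycline) and 0.41 (without Fed 2 with tetracycline), and leaving out Fed 1 without tetracycline gave 0.16. In 36 arrangements the smallest p these tests can give is 0.056, so none could pass 0.05. Expressed as a share of each list's cover, the log2 ratio came to -0.04 (exact permutation p = 0.72, adjusted p = 0.85). This is the mean of -0.22 without and 0.13 with tetracycline, each larger than the pooled SD of 0.067. Without tetracycline the Fed shares, 1.45 and 1.32 per mille, were both above the Fast shares of 1.17 and 1.21 per mille. With tetracycline the Fed shares, 1.25 and 1.15 per mille, were both below the Fast shares of 1.31 and 1.32 per mille. Among the upper 0.5 of each list by score it had the opposite sign, 0.14.

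H3K9ac cover of the cluster without tetracycline was 30573 and 60738 bp in the Fed lists and 42934 and 41963 bp in the Fast lists. With tetracycline it was 29475 and 45569 bp (Fed) and 49755 and 51758 bp (Fast). The log2 ratio, Fast over Fed, was 0.22, with a pooled SD between lists of 0.42 and 3 of 4 pairs in this direction (exact permutation p = 0.44, adjusted p = 0.85). It was 0.62 over lists 1 and -0.17 over lists 2, and without the H3K9ac list Fed 1 without tetracycline it was -0.02. With equal numbers of the best-scoring peaks from each list it was -0.52. The share gave -0.23 (exact permutation p = 0.5, adjusted p = 0.85). No fasting difference averaged over the tetracycline states passed its test.

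**Figure D4:**
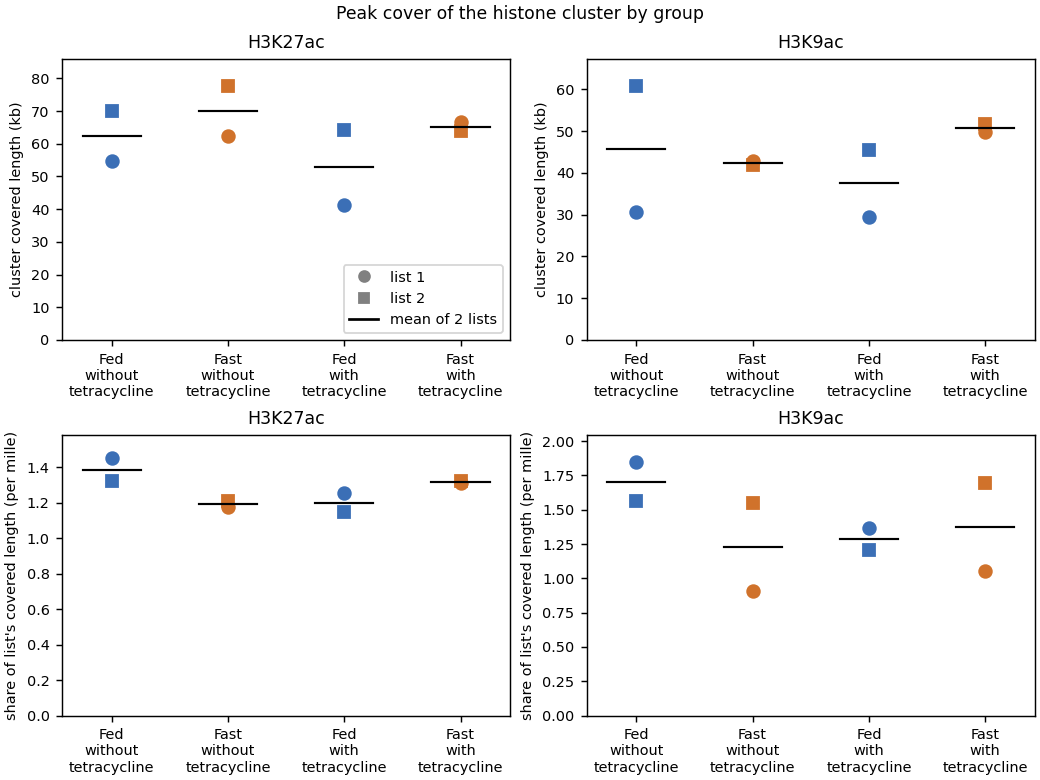
Base pairs of the 2 blocks covered by peaks, in kb (top), and the cluster's share of the list's covered length, in per mille (bottom), for each list by group (horizontal axis; blue Fed, orange Fast; circle list 1, square list 2; line, mean of the 2 lists). In covered length the 2 Fed lists numbered 1 are the lowest of each mark. In H3K27ac share the Fed lists lie above the Fast lists without tetracycline and below them with it.

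Gene by gene, no member had a peak in every Fast list and no Fed list, or the reverse, for either mark. The first rule was met by 0.26% of all genes for H3K27ac and 0.334% for H3K9ac, the reverse by 0.00914% and 0.0228%. The mean H3K27ac cover was higher in Fast at 39 of 51 members, and at 72.4% of all genes with a peak. For H3K9ac it was higher in Fast at 24 of 51 members, against 65.9% of all genes with a peak. H3K27ac was present in more Fast than Fed lists at 6 members and in fewer at 2 (19.6% and 7.44% of all genes). H3K9ac was present in more Fast lists at 13 members and in fewer at 17 (30.6% and 12.5% of all genes).

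Covered base pairs of every Fast list lay above those of every Fed list at 2 members for H3K27ac, H4c8 and H1f2 (3.52% of all genes), and at none in reverse (0.283%). H4c8, an H4 gene, had 1625, 1798, 1685 and 1734 bp in the Fed lists (1 and 2 without, then 1 and 2 with tetracycline) and 1878, 2008, 1908 and 1981 bp in the Fast lists. H1f2 had Fed values of 2152, 1987, 1956 and 1715 bp and Fast values of 2514, 2373, 2205 and 2226 bp. The means of the Fed and Fast lists were 1710.5 and 1944 bp for H4c8 and 1952.5 and 2329.5 bp for H1f2. Both genes carried a peak in all lists, and peaks covered more of the window in Fast. The count of 2 was near the background, and leaving out 1 list gave 2 to 7 members: 6 without Fed 2 without tetracycline (6.43% of all genes), 4 without Fast 1 without tetracycline (4.66%), 6 without Fed 2 with tetracycline (6.37%) and 7 without Fast 1 with tetracycline (5.68%).

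For H3K9ac the rule was met in Fast at H2bc14 and H2ac10 (2.24% of all genes) and at no member in reverse (0.544%). H2bc14 had 994, 0, 955 and 0 bp in the Fed lists and 1393, 1085, 1132 and 1105 bp in the Fast lists. H2ac10 had 298, 0, 0 and 592 bp (Fed) and 688, 691, 1110 and 822 bp (Fast). In each, 2 of 4 Fed lists had no H3K9ac. With peaks over the gene body alone neither H2bc14 nor H2ac10, nor either H3K27ac gene, met the rule. H4c8 and H1f2 could not have met it. Their gene bodies lay wholly under an H3K27ac peak in every Fast list and in at least 1 Fed list, so the values tie. Leaving out 1 H3K9ac list, Fast 1 with tetracycline, gave 4 members (3.44% of all genes).

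The largest differences in number of lists marked were for H3K9ac. H4c2 was marked in all 4 Fast lists (569, 630, 768 and 663 bp) and in 1 of 4 Fed lists (885 bp). The pair H2ac22 and H2bc22 was marked in 3 Fast lists and no Fed list. Their H3K9ac values in Fast were 835, 999, 0 and 1302 bp at H2ac22 and 1064, 1683, 0 and 1302 bp at H2bc22, and the pair shares its peak in part. In the other direction H2ac13 was marked in all 4 Fed lists (900, 778, 1176 and 1515 bp) and 2 Fast lists (1566 and 1783 bp, both of number 2). H2bc7 was marked in all 4 Fed lists (968, 1542, 1121 and 977 bp) and in 2 Fast lists, by 2 and 1992 bp. A difference of 2 lists was also seen at H2bc14 and H2ac10 and, chosen after their values were seen, at H4c4 and H1f1 (each in 2 Fed and 4 Fast lists) and at H4c1 (3 Fed lists and 1 Fast list). At the 5 genes with values given here H3K27ac was present in at least 7 of 8 lists, so the absences were of H3K9ac. For H3K27ac the largest differences were 2 lists, at H4c11 and at H1f6, whose values are given above.

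Tetracycline was compared in the same way. The cluster's H3K27ac cover differed by -0.18 on the log2 scale, with over without (3 of 4 list pairs lower, exact permutation p = 0.44, adjusted p = 0.85), and its H3K9ac cover by 0.01 (exact permutation p = 1.0, adjusted p = 1.0). The shares differed by -0.03 (exact permutation p = 0.72) and -0.11 (exact permutation p = 0.67), both with an adjusted p of 0.85. These differences, averaged over the feeding states, were smaller than the pooled SD between lists of 0.28 and 0.42 for length, and of 0.067 and 0.38 for share. The H3K27ac share difference is the mean of 0.14 in Fast and -0.21 in Fed, each larger in size than the pooled SD of 0.067. Leaving out 1 list moved the H3K27ac cover difference between -0.019 (without Fed 1 with tetracycline) and -0.34 (without Fed 2 with tetracycline). Mean H3K27ac cover was higher with tetracycline at 10 of 51 members (34.0% of all genes with a peak) and mean H3K9ac cover at 21 of 51 (53.8%). H3K27ac was in fewer lists with tetracycline at 7 members and in more at none (16.7% and 8.1% of all genes). H3K9ac was in fewer lists with tetracycline at 20 members and in more at 11 (16.8% and 22.6%).

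H2bc7 and H2ac7, the head-to-head pair printed above, were the 2 members whose H3K27ac cover in every list without tetracycline exceeded that in every list with it (0.95% of all genes). H2bc7 had 1460, 1723, 1568 and 2230 bp without (Fed 1, Fed 2, Fast 1, Fast 2) and 1070, 1454, 0 and 1277 bp with tetracycline. H2ac7 had 1965, 1997, 1972 and 1960 bp without and 1537, 1847, 373 and 1725 bp with it. The lowest value of each was Fast 1 with tetracycline, and as the pair shares its peak this is a single observation. With a window of 2.5 kb, or the gene body alone, neither gene met the rule. By gene body H2bc7 could not have met it, because its body lay wholly under the peak in Fed 2 with tetracycline. Leaving out 1 list gave 2 to 5 members: 4 without Fed 1 without tetracycline (3.71% of all genes), 4 without Fast 1 with tetracycline (2.11%) and 5 without Fast 2 with tetracycline (1.66%).

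No member had the opposite H3K27ac order (0.164% of all genes). For H3K9ac only H1f2 had every list with tetracycline above every list without (0.594% of all genes), and no member the reverse (0.356%). H1f2 had 1684, 1941, 1605 and 1764 bp of H3K9ac without (Fed 1, Fed 2, Fast 1, Fast 2) and 2043, 2188, 2120 and 2015 bp with tetracycline. Leaving out 1 list gave 4 members without Fed 2 without tetracycline (2.23% of all genes), 3 without Fed 1 with tetracycline (2.44%) and 2 without Fast 1 with tetracycline (0.955%). No member had a peak in every list of a tetracycline state and none of the other. That rule was met at 0.0% (with) and 0.0914% (without) of all genes for H3K27ac and at 0.0274% and 0.0137% for H3K9ac. H2ac12 and H2bc12, printed above, and H2bc7 were marked by H3K9ac in 2 fewer lists with than without tetracycline. Chosen after their values were seen, the others with this difference were H4c4 (4 lists without, 2 with), H2ac4, H3c2 and H4c1 (3 without, 1 with). H4c12 had the opposite order, with 2 lists without and 4 with. The H3K9ac cover of H2ac12 was 1374, 1943, 622 and 597 bp without and 745, 0, 1362 and 0 bp with it, so the empty lists were both of number 2.

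Whether the fasting difference depended on tetracycline was tested directly. The log2 fasting ratio of H3K27ac cover was 0.34 with and 0.17 without tetracycline, a difference of 0.17 (exact permutation p = 0.78, adjusted p = 0.85). For H3K9ac cover it was 0.47 with and -0.02 without, a difference of 0.49 (exact permutation p = 0.39, adjusted p = 0.85). For the share, tested after the values were seen and outside the 12 tests, the H3K27ac difference was 0.35 (exact permutation p = 0.056, the smallest possible). The H3K9ac fasting ratio of the share was 0.057 with and -0.52 without tetracycline, a difference of 0.58 (exact permutation p = 0.33).

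Other genes of the pathway were counted for comparison. Of 12 genes for transcription and 3′ end processing of histone mRNA, 10 carried H3K27ac and 8 carried H3K9ac in all 8 lists, Npat, Slbp and Lsm11 among them with both. Eri1, a 3′ exonuclease that acts on histone mRNA, had H3K27ac in 4 lists and H3K9ac in 6. Of 11 replication-independent histone genes, 8 had H3K27ac and 6 had H3K9ac in all 8 lists. H3f3a and H3f3b, which encode the variant H3.3, carried both marks in all lists, and H1f10 carried neither in any. Of 13 replication-dependent histone genes outside the cluster, 10 had H3K27ac and 2 had H3K9ac in all 8 lists. As in the cluster, H3K27ac was in all lists at more of these genes than H3K9ac. H3K9ac cover of every list with tetracycline lay above every list without at 2 of these 13 (0.594% of all genes). Windows of some of these 13 overlap, such as those of H2ac21 and H2ac20, so they are not all separate observations. No other pathway list had more than 1 gene with groups that did not overlap in a given direction. Of all protein-coding genes, 42.4% had H3K27ac and 34.1% had H3K9ac in all 8 lists. Of 14 crypt and proliferation markers 6 had H3K27ac and 3 had H3K9ac in all 8 lists, Pcna and Ccne2 carrying both. Among these 14, Lgr5, Ascl2 and Olfm4 had H3K27ac in 0, 0 and 1 Fed lists and in 3, 3 and 4 Fast lists. Their H3K9ac was in 2, 0 and 3 Fed lists and in 4, 2 and 4 Fast lists. Mcm3 had H3K27ac in 1 Fed list and 4 Fast lists. Ccne1 and Mcm2 went the other way, with H3K27ac in 4 Fed lists each and in 1 and 3 Fast lists. The other genes of the 14 had H3K27ac in equal numbers of Fed and Fast lists.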

How the data were processed

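CUT&Tag peak lists of 8 samples (16 lists) were used. Per the submitters' processing notes, reads were handled with FastQC, Bowtie and SAMtools on mm10; versions, the peak caller's settings and the use of IgG libraries are not given in the sources used here. For each peak the authors deposited a position, a MACS name and a score (at least 50, unit not stated), which served here for ranking and filtering inside a list. The deposited names call the data downsampled; read totals are unknown, so no interval or floor for depth is given. Members and lists of genes were chosen with earlier results of these data known.

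Peaks on chromosomes 1 to 19, X and Y were joined to RefSeq genes of GRCm38.p6 (window 1 kb on either side, overlap at least 1 bp). A gap of over 500 kb between members started a new block. Cluster values, 1 per list, were tested two-sided on the log2 scale by exact permutation within tetracycline state, feeding state or condition, with Benjamini-Hochberg adjustment over 12 tests and a threshold of 0.05. Named members were, per mark, the 3 with the highest and the 3 with the lowest summed cover, up to 6 (feeding) or 3 (tetracycline) with the largest differences in lists marked (at least 2), those whose groups do not overlap, and the testis genes; any other is named as an exception of its family or list, or for reaching that difference beyond those numbers. As alternatives, lists were reduced to their higher-scoring 0.5 or to equal numbers of top peaks; others were peaks of at least 500 bp, windows of 2.5 kb, the gene body or gene ends, an overlap of 200 bp, member windows only, a replicate block of list numbers, and leaving out list numbers; leaving out single lists, and the test of the fasting by tetracycline difference in share, were added after seeing the data. Counting was tested on simulated lists. Start sites and strands came from the RefSeq promoter table. The software was pandas 2.3.3, numpy 2.4.6, matplotlib 3.10.9 and scipy 1.17.1 under Python 3.11.15.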

Additional observations from a re-analysis of the deposited data

Results flagged for a closer look

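The H3K27ac share of covered length lying in the cluster moved in opposite directions with fasting in the 2 tetracycline states, in every pair of lists. Without tetracycline the log2 ratio of Fast over Fed was -0.31 for lists 1 and -0.13 for lists 2, and with tetracycline it was 0.063 and 0.20. The difference of the state means was 0.35. Tested after it was seen, by exact permutation of the feeding labels within each state, it had p = 0.056, the smallest that 36 arrangements can give, and this test was outside the 12 adjusted ones. H3K27ac cover in base pairs was higher in Fast in 3 of 4 pairs.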

How the results depend on the processing

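Depth is unknown and each group holds 1 sample, so differences below the spread between lists could not be seen. No fasting or tetracycline test of the cluster's cover or share could pass 0.05 in the full set of lists. Over all alternatives, 169 values of the cluster tests kept their direction and side of the threshold and 21 changed direction, while 272 counts of members stayed within 1.5 times and 60 did not. Unless a value below shows it, the cause was not tested. Pairing lists of the same number (replicate block, exact sign-flip test) cannot move the log2 values (0.25 for H3K27ac and 0.22 for H3K9ac cover with fasting). Its smallest exact p is 0.125 for fasting and tetracycline, so it says nothing of their stability, and for the cover of the marks it gave an exact p of 0.0078.

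Keeping the upper 0.5 of each list by score turned the H3K27ac share with fasting to 0.14, weakened the H3K27ac over H3K9ac difference in cover to 0.43 and took that in share to -0.35. It left 14 members with H3K27ac and 4 with H3K9ac in all 8 lists (27.9% and 19.1% of all genes). It also gave 5 members with H3K27ac of every Fast list above every Fed list (2.82% of all genes), 0 for H3K9ac (1.41%), 2 with H3K27ac in every Fast and no Fed list (0.297%), and 1 in every list without and none with tetracycline (0.0822%). Equal numbers of top peaks gave 0.071 for the H3K27ac share with fasting, -0.52 for H3K9ac cover with fasting and -0.046 for H3K9ac cover with tetracycline. They gave -0.36 for the share difference of the marks, 2 members with H3K9ac in all lists (13.2% of all genes), 1 with H3K27ac higher in every list without tetracycline (0.562%) and 0 with H3K9ac higher in every Fast list (0.484%). Peaks of at least 500 bp gave 0.024 for the H3K27ac share with fasting and -0.34 for the share difference of the marks. A window of 2.5 kb gave 19 members with H3K9ac in all lists (36.2% of all genes), 0 with H3K27ac higher in every list without tetracycline (1.01%), 1 with H3K9ac higher in every Fast list (2.27%) and 2 with H3K9ac higher in every list with tetracycline (0.594%). The gene body alone left 1 member with no H3K27ac and 1 with no H3K9ac in any list (H1f6), and 0 members in each of the 4 non-overlap counts that were above 0. Where a gene body lies wholly under peaks in both groups, its values tie and cannot meet the rule. This held at H4c8 and H1f2 for H3K27ac with fasting. With tetracycline it held at H1f2 for H3K9ac and at H2bc7 for H3K27ac. The counts of 0 therefore say nothing of stability at these genes.

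Leaving out single lists or all lists of 1 number gave these ranges of the log2 values. H3K27ac cover ranged from 0.068 to 0.44 with fasting and from -0.34 to -0.019 with tetracycline. The H3K27ac share ranged from -0.12 to 0.039 with fasting and from -0.066 to 0.0025 with tetracycline, and the H3K27ac fasting by tetracycline difference from -0.16 to 0.50. For H3K9ac the ranges were -0.17 to 0.62 (cover, fasting), -0.70 to 0.24 (share, fasting), -0.24 to 0.26 (cover, tetracycline), -0.30 to 0.079 (share, tetracycline) and -0.0038 to 0.99 (fasting by tetracycline). The difference of the marks ranged from 0.40 to 0.65 in cover and from -0.26 to 0.050 in share. With lists of 1 number the cover test could not pass 0.05 (exact permutation p = 0.125, the smallest possible). Single lists that turned a direction were, for H3K27ac, Fed 1 without tetracycline (tetracycline share) and Fed 2 without or Fed 1 with tetracycline (fasting by tetracycline, -0.01 and -0.15). For H3K9ac they were Fed 1 without (cover with fasting -0.02, with tetracycline -0.24), Fed 2 without (fasting by tetracycline), Fast 2 without and Fast 1 with (tetracycline share, 0.079 and 0.059), and Fed 2 with and Fast 2 with (cover with tetracycline, -0.15 and -0.0022).

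In the same leave-outs the members with H3K27ac of every Fast list above every Fed list numbered 2 to 23 (30.4% of all genes where 23), the reverse 0 to 2 (9.36% where 2), with tetracycline above without 0 to 2 (4.57% where 2), and the reverse 2 to 14 (8.99% where 14). For H3K9ac the same counts were 2 to 14, 0 to 10, 1 to 6 and 0 to 10, with 37.1%, 20.1%, 10.1% and 9.63% of all genes at the upper ends. Members with H3K9ac in all lists numbered 9 to 22 (40.6% of all genes where 22) and with none 0 to 1 (18.5% where 1). Members with a peak in every Fast and no Fed list numbered 0 to 2 for H3K27ac and 0 to 3 for H3K9ac (5.25% and 0.991% of all genes at the upper ends). For H3K9ac those in every Fed and no Fast list numbered 0 to 2 (2.44%), and those in every list without and none with tetracycline 0 to 4 (1.11%). The upper ends come from 2 lists against 2, where separation is easier. With single lists left out, H3K9ac gave 2 members with Fed above Fast without Fast 2 without tetracycline (1.01% of all genes) or Fed 1 with it (1.2%). It gave 1 and 2 members with every list without tetracycline above every list with it, leaving out Fed 1 without and Fast 2 with tetracycline (2.07% and 0.818% of all genes). It gave 1 and 2 members with H3K9ac in every Fast and no Fed list, leaving out Fed 2 and Fast 1 with tetracycline (0.868% and 0.452%).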
